A study of Polistes dominula with 96 samples.

Results

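The early response to queen loss was read by comparing brain gene expression in 24 wasps taken 3 days after their queen was removed with that in 7 workers taken on the same day from nests that kept their queen. These 31 wasps are every queen removal wasp of day 3 and every control worker of day 3 among the 96 females of the paper wasp *Polistes dominula* that were sequenced. The other 65 were 26 queens, 34 wasps of queen removal nests at day 12 and 5 control workers at day 12. The study describes the queens as overwintered foundresses, months older than workers. By their library names, some were the removed queens of queen removal nests and others came from control nests. Each brain was 1 library of unnormalized read counts per gene, and nothing was pooled.

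Nests were brought from the wild and kept in the laboratory, where they lost their queen or had a sham removal. Control workers of day 3 were 2 to 17 days old (median 9) and came from 7 nests with 1 wasp each. Queen removal wasps of day 3 were 3 to 33 days old (median 13) and came from 8 other nests with 1 to 5 wasps each. No nest held wasps of both arms, so a difference between the arms is also one between nests, 8 against 7. The study picked queen removal wasps to span a range of ovarian development and dominance and control workers at random, and this difference in selection cannot be told apart from the treatment. The day on which each control worker was sampled comes from the study's lists and not from the public labels. The libraries held 11305710 to 16223250 counts in control workers (median 13363735) and 9961485 to 16476635 in queen removal wasps (median 13355627).

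In paper wasp colonies the queen keeps the workers from reproducing through dominance and chemical signals, and workers hold the capacity to take over her role. When she is lost, usually a single female, most often one of the oldest, starts to lay while the others go on as helpers. Juvenile hormone, made in the corpora allata and relayed in part by the transcription factor Kr-h1, rises with dominance and egg-laying in these wasps, and insulin signalling, storage proteins and the yolk protein vitellogenin are tied to the same transition.

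The labelled tissue was checked first. All 11 neuronal markers had counts in each of the 31 wasps, with a summed level of 2467 to 3124 CPM (a gene's counts relative to the TMM-scaled library total) in control workers and 2183 to 2996 CPM in queen removal wasps. Markers of other tissues of the head were also present and varied more. The 20 muscle markers summed to 5632 to 13610 CPM (median 10140) in control workers and 4542 to 46570 CPM (median 18010) in queen removal wasps, and 18 of 24 queen removal wasps lay above the highest control worker. The 20 photoreceptor markers summed to 2303 to 5479 CPM and 907.6 to 33610 CPM, with 9 of 24 above the highest control worker. In such bulk samples more cells of a type and more RNA per cell cannot be told apart.

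Few genes separated the arms. Of 10794 genes tested, 4 passed an adjusted p of 0.05 (0.0371%), 1 higher (0.00926%) and 3 lower (0.0278%) in queen removal wasps, by the quasi-likelihood test of edgeR with p-values adjusted over all genes by Benjamini-Hochberg. At an unadjusted p under 0.05 there were 972 genes (9.01%), of which 582 were higher (5.39% of genes tested) and 390 lower (3.61%). The test past a 1.5-fold difference kept 2 genes (0.0185%), both among the 3 lower ones. These tests have no term for the nest, so they treat wasps of 1 nest as independent. With counts summed per nest 0 genes were called, and 0 with the nest as a random effect in limma. The median standard error of a log2 fold change was 0.124 (middle 50% of genes 0.0840 to 0.229), and 91.2% of genes had a log2 fold change smaller than 0.5 in either direction.

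The gene that rose was LOC107068311, named as a putative homolog of protein kinase C delta, a family of kinases that act downstream of lipid signals. Its level was 5.96 to 16.6 CPM (median 13.8) in control workers and 7.07 to 44.6 CPM (median 24.7) in queen removal wasps. The arms overlapped, with 20 of 24 queen removal wasps above the highest control worker, and each of the 8 nests had at least 1 such wasp. Means were 12.7 ± 3.81 CPM (SD, n = 7) and 25.0 ± 8.89 CPM (SD, n = 24), a log2 fold change of 0.98 (SE 0.22, edgeR adjusted p = 0.0463). The direction was the same in each alternative analysis, but the call was not: the adjusted p was 0.247 with the 31 libraries alone, 0.20 with age as a covariate and 0.197 with counts summed per nest. The call was also lost when the control worker of nest 8, 9, 28, 54, 56 or 70, queen removal nest 38, 44, 47 or 51, or 1 wasp of nest 38 was left out, each in turn (adjusted p = 0.0530 to 0.285 by edgeR). Muscle markers moved with this gene, and with their mean level as a covariate its log2 fold change was 0.55 (SE 0.18, edgeR adjusted p = 0.686).

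Each of the 3 genes that fell owed most of its counts in control workers to 1 wasp. LOC107065750, a WD repeat-containing protein 38-like gene, stood at 33.5 CPM in the control worker of nest 8 and at 0 to 0.509 CPM in the other 6, against 0 to 0.340 CPM in queen removal wasps. This single wasp supplied 97.2% of the control counts. The log2 fold change was -6.04 (SE 0.71, edgeR adjusted p = 2.69e-09), and without that wasp it was -0.93 (adjusted p = 0.852). For LOC107073175, an uncharacterized gene, control workers lay between 0.0724 and 8.99 CPM (median 0.581) and queen removal wasps between 0 and 0.495 CPM (median 0.101). The highest control worker, of nest 9, supplied 74.2% of the control counts, and 11 of 24 queen removal wasps lay below the lowest control worker. Those 11 wasps had 0 counts and the lowest control worker had 1. Its log2 fold change of -3.74 (SE 0.73, edgeR adjusted p = 0.00929) became -2.12 (adjusted p = 0.532) without the wasp of nest 9. The third, LOC107064924, also uncharacterized, was at 2.08 CPM in the same control worker, at 0 to 0.509 CPM in the other 6 and at 0 to 0.398 CPM in queen removal wasps, with a log2 fold change of -3.54 (SE 0.74, edgeR adjusted p = 0.0204) that became -2.14 (adjusted p = 0.545) without her.

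**Figure D1:**
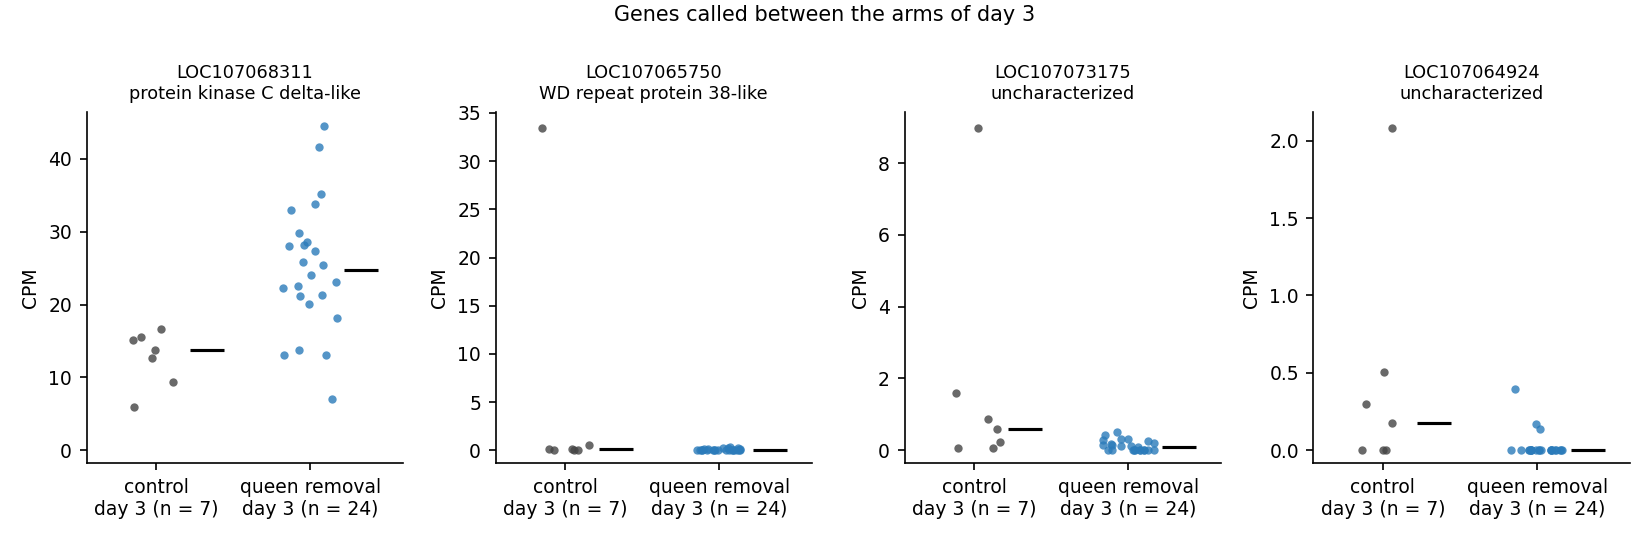
Level in CPM of the 4 genes called between the arms of day 3, 1 point per wasp, with 7 control workers in grey and 24 queen removal wasps in blue and the median as a short bar. In LOC107068311, 20 of 24 queen removal wasps sit above the highest control worker, whereas each of the other 3 genes has 1 control worker far above all other wasps.

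DESeq2 called a different set. With its own filter on low counts it adjusted p-values for 749 genes only and called 7, all higher in queen removal wasps and none of them among the 4 of edgeR. They included the muscle genes tn and bent and the long-wavelength rhodopsin Lop1. When all p-values of DESeq2 were adjusted, which was chosen once the data had been seen, it called 4 genes, all higher: LOC107068311 (log2 fold change 0.99, adjusted p = 0.00697), Kr-h1 (4.13, adjusted p = 0.00911), an uncharacterized gene, LOC107064220 (4.77, adjusted p = 0.00815), and LOC107063902, a glucose dehydrogenase (7.12, adjusted p = 0.00148). DESeq2 replaces counts that stand far out in arms of 7 or more libraries before it fits, and in it LOC107065750 had a log2 fold change of -0.83 (unadjusted p = 0.507).

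Kr-h1 (LOC107064343), the zinc finger transcription factor induced by juvenile hormone, was the hormone gene with the smallest p and was high in some wasps and low in most. Control workers lay between 0.145 and 4.37 CPM (median 0.391) and queen removal wasps between 0.159 and 138 CPM (median 1.72). Of 24 queen removal wasps, 9 lay above the highest control worker, and the other 15 lay within the range of the control workers. The 9 came from 5 of the 8 nests. Nest 47 gave 4 of its 5 wasps, between 6.20 and 138 CPM, and nest 51 gave 2 of 4, at 9.74 and 68.0 CPM. Nests 38, 69 and 71 gave 1 each, at 61.8, 33.5 and 55.2 CPM, and the 4 wasps of nests 44, 52 and 57 were at 0.511 to 2.11 CPM.

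The mean difference in Kr-h1 was a log2 fold change of 4.08 (SE 1.26, unadjusted p = 0.00160, edgeR adjusted p = 0.450), which did not pass the threshold. It was 3.38 without nest 47, whose wasps were 21 to 30 days old, 3.29 among the 15 queen removal wasps and 7 control workers aged 2 to 17 days, and 2.32 with age as a covariate (adjusted p = 0.471). For scale, 25 of 26 queens lay above the highest control worker of day 3, with a median of 69.3 CPM, and so did 13 of 34 queen removal wasps of day 12. LOC107064220, named here after its values were seen, was at 0 to 0.450 CPM in control workers and 0 to 29.2 CPM in queen removal wasps, of which 16 lay above the highest control worker. Those 16 wasps included the same 9 wasps that were high in Kr-h1.

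**Figure D2:**
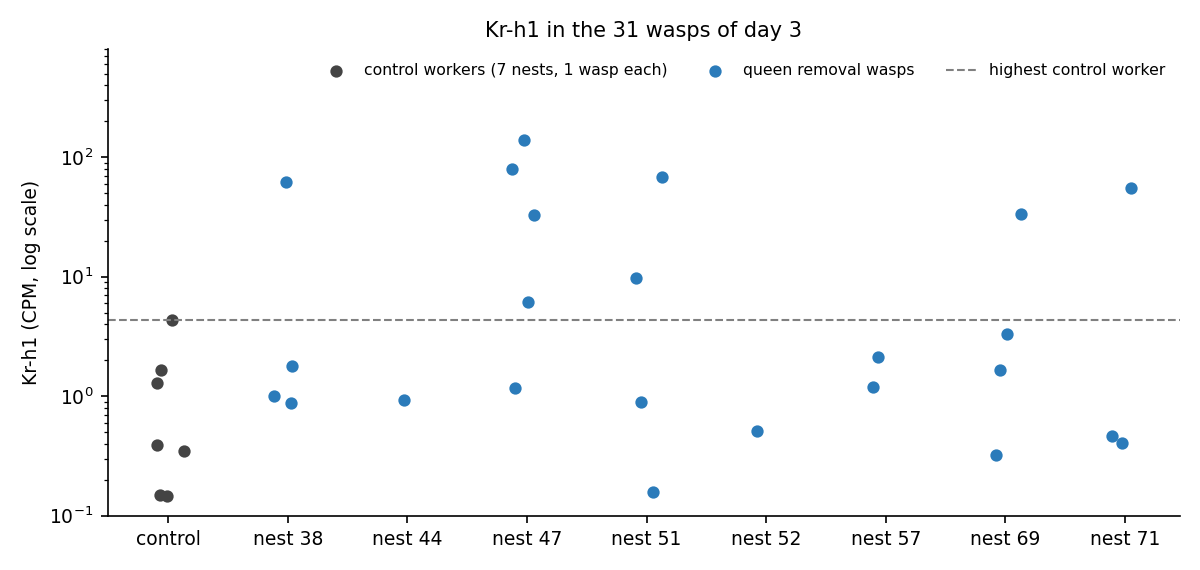
Kr-h1 in CPM on a log axis in the 31 wasps of day 3, 1 point per wasp, with the 7 control workers at the left and queen removal wasps by nest, and a dashed line at the highest control worker (4.37 CPM). The 9 wasps above the line come from nests 38, 47, 51, 69 and 71, and each of these nests also has at least 1 wasp below it.

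The rest of the juvenile hormone and ecdysone list differed less. Of its 21 members, 1 had an unadjusted p under 0.05 with a higher level (Kr-h1) and 1 with a lower level (usp). Over all genes tested these shares were 5.39% and 3.61%. In 16 members the log2 fold change was below 0 (51.6% of all genes tested). The median of the list was -0.06, against -0.01 over all genes tested. The gene usp encodes ultraspiracle, the partner of the ecdysone receptor. It lay between 55.2 and 86.4 CPM (median 63.9) in control workers and 27.3 and 64.8 CPM (median 49.3) in queen removal wasps, and 17 of 24 lay below the lowest control worker (log2 fold change -0.40, SE 0.14, edgeR adjusted p = 0.463). The gene jhamt, which encodes the methyltransferase of the last steps of juvenile hormone synthesis, was at 109 to 169 CPM in control workers and 95.5 to 373 CPM in queen removal wasps, with 7 of 24 above the highest control worker (log2 fold change 0.31, SE 0.27, edgeR adjusted p = 0.754). Its highest value was in the wasp of nest 47 that was also highest in Kr-h1.

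No insulin signalling gene was called. Of 17 members of the insulin and TOR list, 12 had a log2 fold change below 0 (51.6% of all genes tested did), with a median of -0.04, and 2 had an unadjusted p under 0.05 with a lower level (3.61% of all genes tested) and none with a higher level. InR-2, an insulin receptor, was at 38.4 to 62.6 CPM (median 45.01) in control workers and 26.6 to 51.9 CPM (median 40.3) in queen removal wasps (log2 fold change -0.35, SE 0.12, edgeR adjusted p = 0.463), with 10 of 24 below the lowest control worker. Pi3K92E, the catalytic subunit of phosphoinositide 3-kinase, had 6 of 24 wasps below the lowest control worker (log2 fold change -0.26, SE 0.10, edgeR adjusted p = 0.469). The transcription factor gene foxo, which insulin signalling holds in check, had a log2 fold change of -0.29 (SE 0.17, edgeR adjusted p = 0.612) at day 3 and 0.68 at day 12. The difference between the days had an unadjusted p of 0.000351 by edgeR and was not called. Mean foxo was 44.5 CPM at day 3 (n = 7) and 23.1 CPM at day 12 (n = 5) in control workers. In queen removal wasps it was 36.3 and 37.2 CPM, so the days differed mainly in the control arm.

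Storage and yolk proteins varied widely among wasps of the same arm. Vitellogenin (Vgn), the yolk protein precursor, was at 517 to 3834 CPM (median 1483) in control workers and 351 to 10140 CPM (median 2191) in queen removal wasps, and 8 of 24 lay above the highest control worker (log2 fold change 1.04, SE 0.59, edgeR adjusted p = 0.612). Hex110, a hexamerin-like storage protein gene, was low everywhere, at 0 to 1.12 CPM in control workers and 0 to 16.0 CPM in queen removal wasps. In this gene 13 of 24 wasps from 7 of 8 nests lay above the highest control worker (log2 fold change 2.40, SE 0.67, unadjusted p = 0.000538, edgeR adjusted p = 0.349). It was called when all 12 control workers were used (adjusted p = 0.0458). Hex70a, another hexamerin gene of the arylphorin kind, had a log2 fold change of 0.10 (SE 1.07) that rested on 1 wasp of nest 38 at 8529 CPM, which supplied 87.0% of the counts of its arm. Without her it was -2.60 (adjusted p = 0.449 by edgeR). Its median was 184 CPM in control workers and 25.8 CPM in queen removal wasps. The lipid carrier gene apolpp had 16 of 24 queen removal wasps below the lowest control worker, with medians of 2159 and 1536 CPM (log2 fold change -0.35, SE 0.17, edgeR adjusted p = 0.545).

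Muscle genes had the largest shift of any list with at least 10 members. Of 20 members, 14 had an unadjusted p under 0.05 with a higher level (5.39% of all genes tested). In 19 the log2 fold change was above 0 (48.4% of all genes tested). The median was 0.89 (-0.01 over all genes tested), and none passed the adjusted threshold by edgeR. Members of this list move together within a library and are not independent observations. The gene tn was at 172 to 574 CPM (median 455) in control workers and 166 to 2259 CPM (median 873) in queen removal wasps, and 20 of 24 wasps from all 8 nests lay above the highest control worker (log2 fold change 1.22, SE 0.38, edgeR adjusted p = 0.450). It carries the fly symbol of thin, a ubiquitin ligase that keeps muscle fibres intact, although the product name given by the study is another one. The gene bent, which encodes the giant muscle kinase twitchin, was at 266 to 1049 CPM in control workers and 306 to 2684 CPM in queen removal wasps, with 14 of 24 above the highest control worker (log2 fold change 1.23, SE 0.38, edgeR adjusted p = 0.450). The calcium sensor troponin C (TpnC25D) had medians of 268 and 577 CPM (log2 fold change 1.40, SE 0.49) and myofilin (Mf), a protein of thick filaments, medians of 503 and 952 CPM (log2 fold change 1.05, SE 0.38), each with an adjusted p of 0.463.

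Single members of the activity and chaperone lists lay higher in most queen removal wasps, and none was called. Of the 6 early genes of neuronal activity 4 had a log2 fold change below 0 (median -0.03), and kay was the only one at an unadjusted p under 0.05. This gene, the fly homolog of the early response factor Fos, was at 183 to 301 CPM in control workers and 174 to 805 CPM in queen removal wasps, with 18 of 24 above the highest control worker (log2 fold change 0.59, SE 0.21, edgeR adjusted p = 0.463). LOC107065477, a heat shock 70 kDa cognate 4-like chaperone gene, had medians of 174 and 279 CPM, with 17 of 24 above the highest control worker (log2 fold change 0.90, SE 0.32, edgeR adjusted p = 0.463). With the mean muscle marker level as a covariate the log2 fold changes were 0.18 for kay and 0.26 for LOC107065477, and 0.40 for tn and 0.45 for bent. Both tn and bent are members of the list behind this mean, so adjusting for it lowers their values by construction.

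Genes of the translation machinery lay slightly higher in queen removal wasps, by small and similar amounts. Of 76 cytosolic ribosomal protein genes, 75 had a log2 fold change above 0 (48.4% of all genes tested did), and the median was 0.20. At an unadjusted p under 0.05, 39 were higher (5.39% of all genes tested) and none lower. None passed the adjusted threshold by edgeR. RpL19 was at 154 to 199 CPM in control workers and 162 to 296 CPM in queen removal wasps, with 18 of 24 above the highest control worker (log2 fold change 0.25, SE 0.09, edgeR adjusted p = 0.463), and RpL13A had 17 of 24 above it (log2 fold change 0.26, SE 0.09). The mean log2 CPM over the list was 7.45 to 7.70 in control workers and 7.41 to 8.14 in queen removal wasps, 14 of which lay above the highest control worker. Members of such a list move together within a library, so their number is not a number of independent observations.

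Mitochondrial ribosomal proteins, which serve the ribosome inside the mitochondrion, had a like pattern: 70 of 71 had a log2 fold change above 0 (48.4% of all genes tested). At an unadjusted p under 0.05, 23 were higher (5.39% of all genes tested) and none lower, and the median was 0.12. The gene mRpL21 was at 27.7 to 32.9 CPM in control workers and 30.6 to 48.5 CPM in queen removal wasps, with 21 of 24 above the highest control worker (log2 fold change 0.30, SE 0.08, edgeR adjusted p = 0.349), and mRpL22 had 16 of 24 above it (log2 fold change 0.22, SE 0.06, edgeR adjusted p = 0.349). RpI12, a subunit of the RNA polymerase that transcribes ribosomal RNA, was at 9.58 to 12.3 CPM and 9.79 to 20.1 CPM, with 19 of 24 above the highest control worker (log2 fold change 0.39, SE 0.10, edgeR adjusted p = 0.344). The list of 30 genes of ribosome production, to which RpI12 belongs, did not share this and had a median of 0.01. RpI12 was its only member at an unadjusted p under 0.05 with a higher level, and 2 had a lower level.

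Genes of oxidative phosphorylation were above 0 in 62 of 62 members (48.4% of all genes tested), with a median log2 fold change of 0.18. Of these, 8 had an unadjusted p under 0.05 with a higher level (5.39% of all genes tested). Without nest 69 the median was 0.11. SdhA, a subunit of succinate dehydrogenase, had medians of 197 and 253 CPM (log2 fold change 0.28, SE 0.12, edgeR adjusted p = 0.484), and COX7B, a subunit of cytochrome c oxidase, medians of 308 and 366 CPM (log2 fold change 0.32, SE 0.14, edgeR adjusted p = 0.50). Muscle markers moved with these lists too. With their mean level as a covariate the median was 0.12 for cytosolic ribosomal proteins, 0.07 for mitochondrial ribosomal proteins and -0.04 for oxidative phosphorylation.

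**Figure D3:**
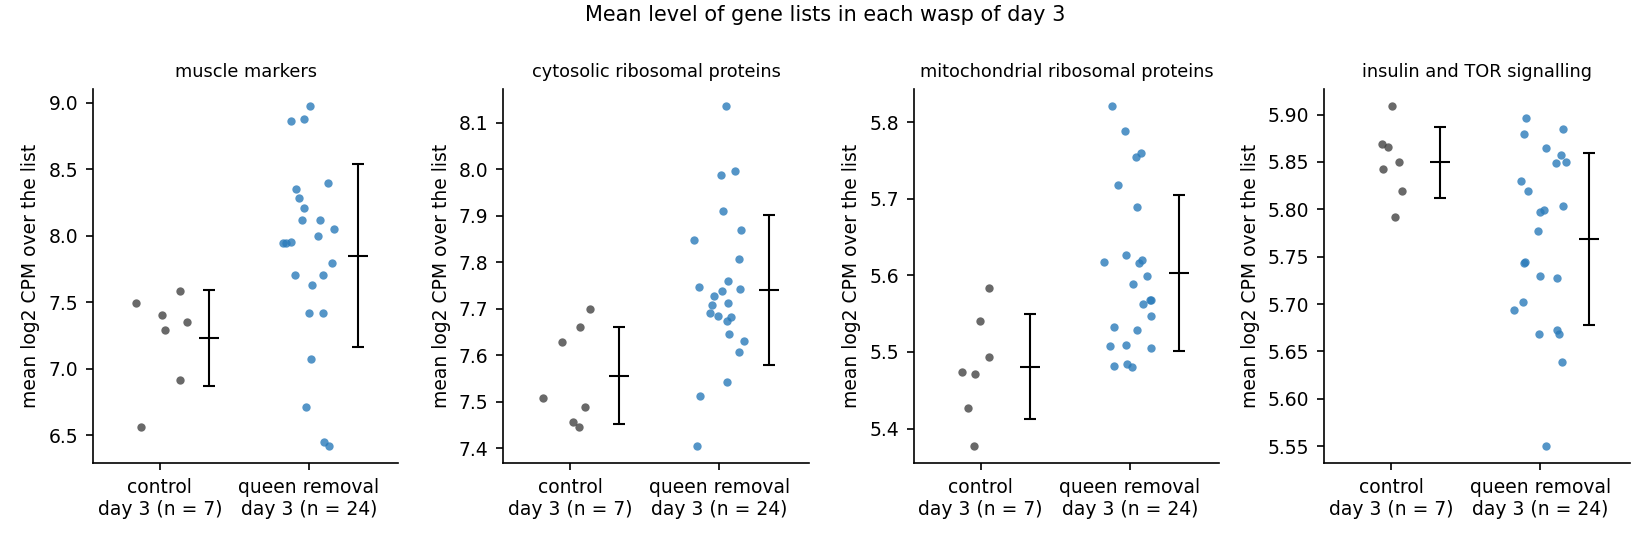
Mean log2 CPM over 4 gene lists in each wasp of day 3, 1 point per wasp, with 7 control workers in grey, 24 queen removal wasps in blue and the mean ± SD at the right of each group. Above the highest control worker lie 18 of 24 queen removal wasps for muscle markers, 14 for cytosolic and 12 for mitochondrial ribosomal proteins, while 12 of 24 lie below the lowest control worker for insulin and TOR signalling.

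No gene of neuronal communication was called. Of 28 genes of synaptic vesicles and release, 21 had a log2 fold change below 0 (51.6% of all genes tested did), with a median of -0.08. At an unadjusted p under 0.05, 2 were lower (3.61% of all genes tested) and none higher. Complexin (cpx), which clamps vesicles before release, was at 379 to 512 CPM in control workers and 260 to 494 CPM in queen removal wasps, with 16 of 24 below the lowest control worker (log2 fold change -0.26, SE 0.12, edgeR adjusted p = 0.534). The vesicle protein synaptobrevin (nSyb) had a log2 fold change of -0.16 (SE 0.08, edgeR adjusted p = 0.553), and of -0.09 without the control worker of nest 54 and -0.10 without that of nest 56. Markers of cell types differed too: muscle markers had a median of 0.89, while 8 of 11 neuronal and 10 of 12 glial markers were below 0, each list with a median of -0.10. These lists are not separate from the synaptic one. It shares nSyb, ChAT, cac and VGAT with the neuronal markers and axo with the glial markers. The part of cell types in these values was not tested.

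Of 19 genes of biogenic amine synthesis and reception, 15 were below 0 (51.6% of all genes tested were; median -0.11). None reached an unadjusted p under 0.05. The dopamine receptor gene Dop2R had medians of 186 and 150 CPM (log2 fold change -0.21, SE 0.14, edgeR adjusted p = 0.675), and ple, which encodes the tyrosine hydroxylase that starts dopamine synthesis, medians of 11.4 and 17.2 CPM (log2 fold change 0.37, SE 0.27, edgeR adjusted p = 0.698), which was 0.57 without the control worker of nest 56 and 0.24 without the wasp of nest 38 whose name carries another nest's number. Among 28 neuropeptide and receptor genes 17 were below 0, where 51.6% of all genes tested were. A tachykinin-like peptide receptor gene, LOC107067011, was at 12.9 to 16.2 CPM in control workers and 6.81 to 15.8 CPM in queen removal wasps, with 16 of 24 below the lowest control worker (log2 fold change -0.30, SE 0.10, edgeR adjusted p = 0.463).

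Immune, chromatin and chemosensory genes showed isolated differences, and none was called by edgeR. Over all genes tested, 5.39% had an unadjusted p under 0.05 with a higher level and 3.61% with a lower level. The NF-kappa-B inhibitor gene cact was at 34.97 to 46.99 CPM in control workers and 38.2 to 77.0 CPM in queen removal wasps, with 19 of 24 above the highest control worker (log2 fold change 0.38, SE 0.13, edgeR adjusted p = 0.463), and was the only one of 25 immune genes at an unadjusted p under 0.05. The antimicrobial peptide gene Apid1 had a log2 fold change of -0.91 (SE 0.61, edgeR adjusted p = 0.678), which was -0.04 without the control worker of nest 49, at 62.5 CPM the highest of its arm. Of 62 chromatin modifier genes, 1 had an unadjusted p under 0.05 with a higher level and 3 with a lower level. LOC107066902, a histone-lysine N-methyltransferase 2C-like gene, was at 213 to 314 CPM and 138 to 246 CPM, with 17 of 24 queen removal wasps below the lowest control worker (log2 fold change -0.28, SE 0.09, edgeR adjusted p = 0.463). Core and linker histones had a median of 0.05, and 1 of 17, the histone H2A gene LOC107068157, had an unadjusted p under 0.05 with a lower level (log2 fold change -0.25, SE 0.11, and -0.14 without nest 47).

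A chemosensory protein gene, LOC107068500, had medians of 11.6 and 21.2 CPM and 10 of 24 wasps above the highest control worker (log2 fold change 1.04, SE 0.50, edgeR adjusted p = 0.536). Among genes of hydrocarbon and fatty acid synthesis, which supply the waxes by which wasps tell rank and nest, bond was at 0 to 0.796 CPM in control workers and 0 to 24.8 CPM in queen removal wasps (log2 fold change 2.60, SE 0.90, edgeR adjusted p = 0.463), with 16 of 24 above the highest control worker, and a log2 fold change of 1.69 without nest 47. LOC107070407, a putative fatty acyl-CoA reductase, had 10 of 24 above it (log2 fold change 1.33, SE 0.61, edgeR adjusted p = 0.513), and its log2 fold change was 0.69 without nest 47. In the proteasome list 28 of 35 members were above 0 (48.4% of all genes tested were), with a median of 0.05, and 1 member had an unadjusted p under 0.05 in each direction. Its activator subunit 4B-like gene LOC107067314 had 13 of 24 below the lowest control worker (log2 fold change -0.23, SE 0.07, edgeR adjusted p = 0.450). Rme-8, a DnaJ protein of endosomes that was named after its values were seen, was at 93.9 to 128 CPM in control workers and 63.4 to 103 CPM in queen removal wasps, with 17 of 24 below the lowest control worker (log2 fold change -0.36, SE 0.09, edgeR adjusted p = 0.248).

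**Figure D4:**
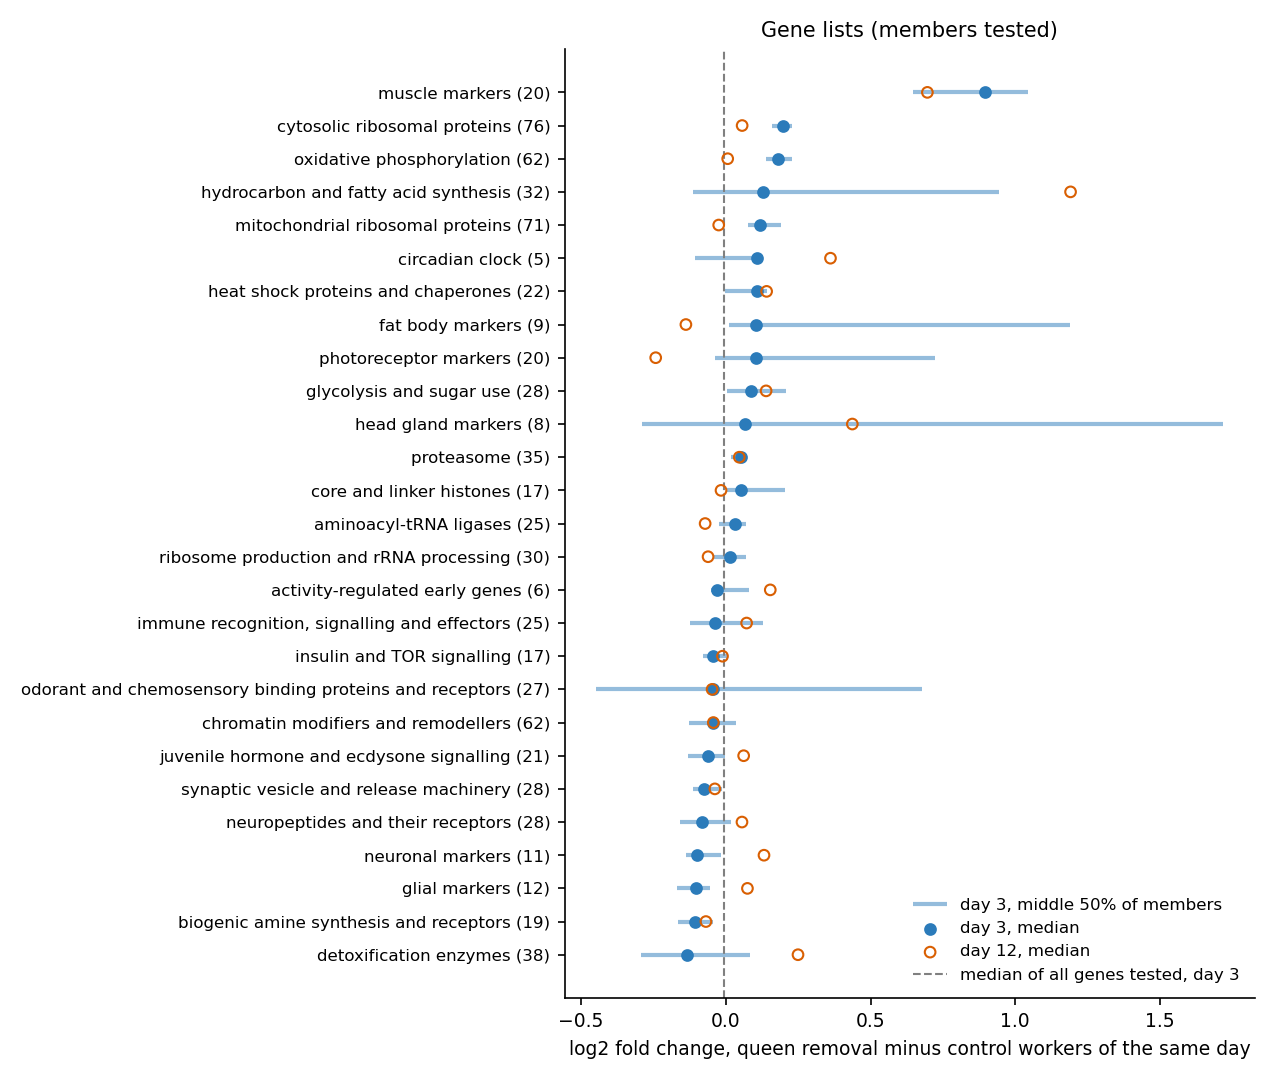
Median log2 fold change of gene lists, queen removal minus control workers, at day 3 (filled, with the middle 50% of members as a bar) and at day 12 (open), with the median of all genes tested at day 3 dashed and the number of members tested in parentheses. The list of 6 storage and yolk proteins, whose medians of 1.12 and -1.16 rest on few genes, is not drawn. Muscle markers lie furthest from 0 at day 3 (0.89), and cytosolic ribosomal proteins and oxidative phosphorylation lie at 0.20 and 0.18 at day 3 and 0.06 and 0.01 at day 12.

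Some genes were near 0 in most wasps and very high in 1 to 3. The glucose dehydrogenase gene LOC107063902, of the sugar list, was at 0.260 to 32.5 CPM in control workers and had a median of 4.87 CPM in queen removal wasps, of which 3 stood at 8827, 30960 and 46730 CPM. The same 3 wasps, of nests 69, 47 and 51, had the 3 highest levels of Hbg3, named for an alpha-glucosidase of the honeybee's head glands, at 230, 475 and 5220 CPM, while control workers lay between 0.130 and 8.85 CPM. Summed over the 8 head gland markers, which include Hbg3, 3 of 24 wasps lay above the highest control worker (up to 6672 CPM against 849.8 CPM), those of nests 47 and 51 among them. The rhodopsin gene Lop1 was above the highest control worker (324 CPM) in 8 of 24 wasps, up to 12940 CPM in 1 wasp of nest 71, and Rh5 in 8 of 24 (log2 fold changes 3.66 and 3.89, adjusted p = 0.483 and 0.463 by edgeR). The part of gland and eye tissue in these values was not tested.

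A further 3 genes were picked after their values were seen. The gene hdm stood at 66.97 and 57.5 CPM in 2 wasps of nest 47 and at no more than 0.971 CPM in the other 22 queen removal wasps, and it had counts in 1 control worker only (0.145 CPM). LOC107066895 stood at 4492 CPM in the wasp of nest 52 and at 44.7 CPM in 1 wasp of nest 38, and at no more than 2.47 CPM in the other 29 wasps of day 3. In Dhc1, a gene for an axonemal dynein heavy chain, the outlying wasp was a control worker: that of nest 54 was at 66.2 CPM, and the other 30 wasps lay between 9.17 and 15.3 CPM (log2 fold change -0.74, SE 0.19, edgeR adjusted p = 0.236). Without that wasp it was -0.07 (adjusted p = 0.968 by edgeR).

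The comparison at day 12 shares no library with that at day 3. There 67 of 10794 genes were called (0.621%), 40 higher (0.371%) and 27 lower (0.25%) in queen removal wasps. Of the 67, 43 had the same direction at day 3 (64.2%, against 55.6% of all genes tested). At day 3, 4 had an unadjusted p under 0.05, where the share over all genes tested was 9.01%. Of these 4, 1 was higher (1.49%, against 5.39% of all genes) and 3 lower (4.48%, against 3.61%). Of the 972 genes at an unadjusted p under 0.05 at day 3, 705 had the same direction at day 12 (72.5%). The test of the difference between the days called 0 genes by edgeR and 0 by DESeq2, with 1079 genes (10%) at an unadjusted p under 0.05 by edgeR. The protein kinase C-like gene LOC107068311 had a log2 fold change of 0.98 at day 3 and 0.31 at day 12, and its control workers stood at 12.7 ± 3.81 CPM (SD, n = 7) at day 3 and 20.1 ± 3.58 CPM (SD, n = 5) at day 12. Kr-h1 had similar values on both days, 4.08 and 3.99. Muscle markers had medians of 0.89 and 0.70, with 19 of 20 members above 0 on each day.

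Genes that separate the castes were read from queens against control workers of day 12, none of which enters the day-3 comparison. The queens were also months older than the workers, and some came from the nests of day-3 wasps. Caste and age cannot be told apart in that contrast, and the part of shared nests was not tested. That contrast called 1878 of 10794 genes (17.4%), 991 higher (9.18%) and 887 lower (8.22%) in queens. Of the 887 genes that were lower in queens, 581 were lower in queen removal wasps at day 3 (65.5%, against 51.6% of all genes tested). At an unadjusted p under 0.05, 55 were lower (6.20%, against 3.61% of all genes tested) and 14 higher (1.58%, against 5.39%). Of the 991 genes higher in queens, 486 were higher at day 3 (49.04%, against 48.4% of all genes tested). At that threshold 69 were higher (6.96%, against 5.39% of all genes tested) and 27 lower (2.73%, against 3.61%). Median log2 fold changes at day 3 were -0.04 for the first set and -0.003 for the second.

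A support vector machine (SVM) trained on the 26 queens (coded 1) and the 5 control workers of day 12 (coded 0) gave each wasp of day 3 a caste estimate. With their own nests held out, training queens were at 0.907 ± 0.132 (SD, n = 26) and training workers at 0.363 ± 0.0581 (SD, n = 5). Nests were not held out for the wasps of day 3. By their library names, training queens included those of all control nests of day 3 and of queen removal nests 38, 47, 51, 69 and 71. None came from nests 44, 52 or 57. A shared nest and likeness in caste cannot be told apart in these estimates. Control workers of day 3 lay between 0.398 and 0.544 (median 0.461) and queen removal wasps between 0.402 and 0.697 (median 0.547), with 13 of 24 above the highest control worker. The means were 0.460 ± 0.0542 (SD, n = 7) and 0.537 ± 0.0930 (SD, n = 24), a difference of 0.0769 (SE 0.0279, p = 0.0475, two-sided exact permutation test over 2629575 splits of the wasps).

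That test treats wasps of 1 nest as independent. Over nest means, 8 against 7, the difference was 0.0453 (p = 0.209, exact permutation test), and 3 of 8 nest means lay above the highest control worker. It was 0.0577 among wasps aged 2 to 17 days (15 against 7, p = 0.159, exact permutation test) and 0.0577 without nest 47 (p = 0.128, exact permutation test), the nest with the highest mean. Leaving out the 20 muscle markers changed it to 0.0760 (p = 0.0498, exact permutation test). These markers are a small part of the genes in the SVM, so leaving them out could change little. The part of muscle tissue in the SVM difference was not tested.

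**Figure D5:**
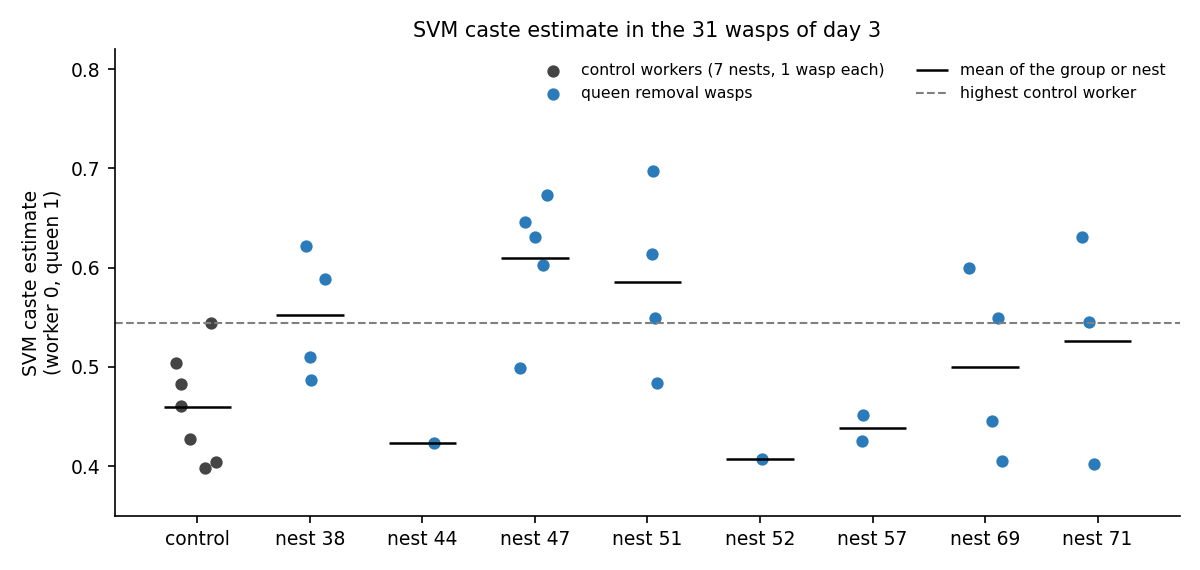
SVM caste estimate of the 31 wasps of day 3, 1 point per wasp, with the 7 control workers at the left, queen removal wasps by nest, black bars for means and a dashed line at the highest control worker (0.544). Means of nests 38, 47 and 51 lie above the line, and the 4 wasps of nests 44, 52 and 57 lie within the range of the control workers.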

How the data were processed

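RNA of single brains was sequenced on an Illumina platform. As the study's methods state, the authors took out ribosomal RNA (SortMeRNA), trimmed what was left (Trimmomatic), mapped it to the annotated transcripts (STAR) and counted by StringTie2. The versions in the submitters' processing notes are Trimmomatic 0.36 and STAR 2.7. What was deposited is a table of raw counts per gene. Of 11335 entries, 194 repeated an ID and were summed, giving 11140 genes, and 1 entry without a name (0.0216% to 0.0706% of counts) was left out. A gene was kept if its counts, summed over any of the 4 labelled groups, exceeded 20 (10794 genes). The 96 libraries in 5 arms were fitted together in edgeR 4.0.16 (R 4.3.3; TMM scaling, quasi-likelihood test, glmTreat at 1.5-fold), with no covariate and with Benjamini-Hochberg adjustment (threshold 0.05). Mean log2 CPM used a prior count of 2. p-values measure the spread between wasps, and those of the main edgeR fit treat wasps of 1 nest as independent. No library was a copy of another (highest correlation 0.983), and intervals from counting alone were not needed because each arm had replicates.

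The SVM was an epsilon regression with a radial kernel (cost 32, gamma 1e-06, epsilon 0.1) in scikit-learn 1.9.0 on z-scored values after DESeq2's variance-stabilizing transformation. DESeq2 1.42.0, limma 3.58.1 (voom, nest as a random effect), age, nest sums, other filters and leaving out wasps or nests were alternatives. A wasp of day 3 whose name carries the number of a control nest was placed in nest 38, where the study lists her, and leaving her out was an alternative.

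Symbols came from a RefSeq gene table of the assembly Pdom_raw_medaka (10144 of 11140 IDs had an entry and 4065 a symbol) and product names from the study's tables (4399 IDs), so 5811 genes had a name. Transcript strand and near-identical copies could not be resolved from counts. Named genes were those called, up to 4 members of each of 28 lists by smallest p, Kr-h1, vitellogenin, Hex70a and jhamt. Not every gene this rule names is described, and exceptions are stated. The comparison, its lists and its named genes were chosen with earlier results of these data known.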

Additional observations from a re-analysis of the deposited data

Results flagged for a closer look

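The 7 control workers were examined for 1 value far from the other 6 (a gap to the nearest wasp of more than 0.568 of the whole range) in 57 of the values reported. This cut is meant to flag about 1 in 20 by chance. That rate does not hold here, because some of these genes were named after their values were seen. A high outlying wasp was found in 13, all genes. In the control worker of nest 8 it was LOC107065750, at 33.5 CPM. In that of nest 9 it was LOC107073175, at 8.99 CPM, and LOC107064924, at 2.08 CPM, so that all 3 genes called lower after queen removal are on this list. In that of nest 49 it was Vgn, at 3834 CPM, and the rhodopsins Rh5, at 18.9 CPM, and Lop1, at 324 CPM. In that of nest 56 it was Kr-h1, at 4.37 CPM, in that of nest 70 the glucose dehydrogenase LOC107063902, at 32.5 CPM, in that of nest 54 Dhc1, at 66.2 CPM, and in that of nest 28 hdm, at 0.145 CPM, and LOC107066895, at 2.47 CPM. Apid1, at 62.5 CPM, and the methyltransferase-like gene LOC107066902, at 314 CPM, each had 1 such control worker too.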

How the results depend on the processing

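The count of 4 genes called at day 3 (1 higher, 3 lower) and of 2 past 1.5-fold depended on the setting. It was 2 (0 higher) with the 31 day-3 libraries alone, 3 (0 higher) with age as a covariate, 7 (7 higher, 0 lower; 1 past 1.5-fold) by DESeq2, 4 (4 higher, 0 lower) by DESeq2 without its filter, and 10 (4 higher, 6 lower) with all 12 control workers. It was 0 in each direction and 0 past 1.5-fold with more than 20 counts in every library of a group (8882 genes tested), with wasps aged 2 to 17 days, with voom and the nest as a random effect and with counts summed per nest, where 781, 1093, 944 and 1223 genes had an unadjusted p under 0.05. With muscle marker level as a covariate it was 3 (1 higher, 2 lower; 1 past 1.5-fold). The 972 genes at an unadjusted p under 0.05 became 1622 with all 12 control workers and 1507 in the 14 libraries below. Leaving out a wasp or a nest gave 1 to 10 calls (0 to 1 higher, 1 to 9 lower), 0 to 5 past 1.5-fold and 723 to 1112 at an unadjusted p under 0.05. The 1 call remained without nest 38 or without the control worker of nest 9, and the 10 calls came without nest 57. RLE size factors and no filter gave 4, the same 4 genes. Replicate numbers shared by the arms do not pair wasps (correlation of deviations -0.067 to 0.177 over 7 numbers). With these numbers as a replicate block the count was 1 (1 higher, 0 lower; 0 past 1.5-fold), and 0 with 0 past 1.5-fold in the same 14 libraries without it. Day 12 had 281 calls by DESeq2 and 67 by edgeR. The SVM difference did not pass the threshold over nest means (0.0453) or at ages 2 to 17 days (0.0577). Nor did it with a gamma 10 times lower (0.0158, p = 0.0647, exact permutation test). With that gamma the estimates of queen removal wasps lay in a narrow band (0.793 to 0.856), so 0.0158 is on another scale. In the main setting the difference was 0.0577 to 0.0910 when a wasp or nest was left out (p 0.0281 to 0.128, exact permutation tests). The difference was past the threshold with training on all 12 control workers (p = 0.0310, exact permutation test). That setting read out the arms unequally. Control workers of day 3 had their own nests held out, queens included, while queens of queen removal nests stayed in training. Hex70a changed sign with age (-0.041), voom (-1.98), nest sums (-0.28), all 12 control workers (-0.023), the replicate block (-2.80), its 14 libraries without it (-3.52) and the muscle covariate (-2.70), and lay at -2.60 to 0.56 when a wasp or nest was left out. LOC107066895 changed sign with voom (-0.30) and the replicate block (-0.16), and foxo with all 12 control workers (0.027). The cause was not tested in any of these. Muscle covariate, DESeq2 without its filter, the 14 libraries without the block, and the SVM without muscle markers or a nest were chosen after seeing the data. The control arm held 7 wasps of 1 nest each, and genes near 0 CPM rested on few counts.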

Other observations

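The lists not described so far held few differences at day 3. Over all genes tested 48.4% were above 0, and at an unadjusted p under 0.05 5.39% were higher and 3.61% lower. Among 38 detoxification enzymes 25 had a log2 fold change below 0 (median -0.13), and 2 had an unadjusted p under 0.05, both higher in queen removal wasps. Of 28 genes of glycolysis and sugar use 21 were above 0 (median 0.09), with 3 at an unadjusted p under 0.05 and higher. Among 22 heat shock proteins and chaperones, 16 were above 0 (median 0.11) and 5 reached that threshold, all higher. CCT2, a subunit of the chaperonin that folds actin and tubulin, was at 190 to 229 CPM in control workers and 197 to 284 CPM in queen removal wasps, with 18 of 24 above the highest control worker (log2 fold change 0.18, SE 0.06, edgeR adjusted p = 0.463). Of 12 glial markers 10 were below 0 (median -0.10), and of 11 neuronal markers 8 (median -0.10), with 0 and 1 members lower at an unadjusted p under 0.05.

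Aminoacyl-tRNA ligases had 17 of 25 members above 0 (median 0.03), the 6 early genes of neuronal activity a median of -0.03 and the 5 clock genes a median of 0.11. Of 20 photoreceptor markers 14 were above 0 (median 0.10), with 6 higher at an unadjusted p under 0.05. The 9 fat body markers had a median of 0.10, and the 8 head gland markers a median of 0.07. Of 27 chemosensory genes 13 were above 0 (median -0.04), and of 32 genes of hydrocarbon and fatty acid synthesis 22 (median 0.13 at day 3 and 1.19 at day 12). None of these lists had a member called at day 3 by edgeR.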
